A study of Mus musculus with 5 samples.

Results

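Cytosolic ribosomal protein genes encode the proteins of the large and the small ribosomal subunit. They were taken as all genes whose symbol follows the Rpl or Rps number pattern, plus Rplp0 to Rplp2 and Rpsa, without the Rps6k kinase genes. This gave 83 of the 31053 genes in the matrices, 51 of the large and 32 of the small subunit, and 82 of them had at least 1 unique molecular identifier (UMI, one tagged mRNA molecule) in the cells kept. This rule reads gene symbols. The data are single-cell RNA sequencing (10x 3′ v2 chemistry) of ventral skin from C57BL/6J mice at postnatal day 28. The 3 Ikkb_cKO libraries came from mice of the genotype Prx1Cre+Ikkbf/f, in which Cre deletes floxed Ikkb (gene symbol Ikbkb, the kinase IKKβ of the NF-kB pathway) in cells of the Prx1 lineage, and the 2 WT libraries came from wild-type mice. Each library was a pool of 2 mice, and whether the WT mice carried floxed alleles without Cre is not given in the sources used here. Prx1Cre is active in part of the mesenchyme of limb and trunk, and which single cells carried the deletion is not given. Living cells were sorted as DAPI-negative before capture.

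Ribosomal proteins fold onto ribosomal RNA in the nucleolus, and the subunits need them in fixed proportion. Their mRNAs are among the most abundant in any growing cell. They begin with a 5′ terminal oligopyrimidine (TOP) tract, through which mTOR and the binding protein Larp1 control their translation. Some members have further known roles. Rpl5 and Rpl11 bind Mdm2 when ribosome assembly fails, Rps6 is phosphorylated by S6 kinases, and Rplp0, Rplp1 and Rplp2 form the stalk that recruits elongation factors.

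The members differ widely in size, and the results below turn on the shortest ones. Coding lengths ran from 78 to 1260 bases, stop codon included, with 11 members under 300 bases and 25 of 600 bases or more. The coding sequences of 2 members among the shortest, both of which rose in the Ikkb_cKO fibroblast-like cells described below, are shown from the GENCODE transcripts of GRCm38 (the mm10 build), with the start and the stop codon in capitals. Rpl41 lies on chromosome 10 (128548114 to 128549305, minus strand) and Rpl39 on chromosome X (37082520 to 37085402, minus strand).
Rpl41: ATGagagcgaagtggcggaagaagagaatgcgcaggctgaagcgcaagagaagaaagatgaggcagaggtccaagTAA
Rpl39: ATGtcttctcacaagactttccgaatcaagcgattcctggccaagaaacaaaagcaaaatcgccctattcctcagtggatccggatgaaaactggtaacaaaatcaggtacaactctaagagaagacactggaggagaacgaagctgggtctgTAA
They encode proteins of 25 and 51 amino acids in this order.

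The Ikkb_cKO libraries held 2163166 to 9738296 UMIs in 945 to 2523 barcodes, against 14659158 and 16773096 UMIs in 3206 and 3393 barcodes in WT. Of 11084 barcodes 10388 were kept, and library pairs shared 0 to 17 barcodes. Clusters were built with the member genes left out and were named from marker genes. Fibroblast-like (5405 cells), myeloid-like (2531) and lymphocyte-like cells (1159) were the classes that had 20 or more cells in each of the 5 libraries. Their defining markers were present in every library, for example Dcn at 5938 to 10231 CPM (UMI counts of a library and class scaled to a common total) in Ikkb_cKO and 8984 to 9387 CPM in WT fibroblast-like cells. Some were lower in every Ikkb_cKO library than in both WT libraries. Pdgfra had 227 to 238 CPM in Ikkb_cKO and 273 to 284 CPM in WT fibroblast-like cells. In lymphocyte-like cells Cd3e had 109 to 504 CPM in Ikkb_cKO and 665 to 682 CPM in WT. Thy1 had 300 to 541 CPM in Ikkb_cKO and 763 to 792 CPM in WT lymphocyte-like cells. Il7r went the other way there, with 417 to 511 CPM in Ikkb_cKO and 218 to 333 CPM in WT. In myeloid-like cells Csf1r had 102 to 114 CPM in Ikkb_cKO and 559.6 to 602 CPM in WT, Lyz2 had 1893 to 3948 CPM in Ikkb_cKO and 7298 to 7634 CPM in WT, and Fcer1g had 1179 to 1721 CPM in Ikkb_cKO and 3361 to 3449 CPM in WT. Ikbkb itself had 16.2, 21.1 and 15.7 CPM in Ikkb_cKO and 15.2 and 18.7 CPM in WT fibroblast-like cells. Which exons are floxed is not given in the sources used here, so whether these 3′ tags check the deletion is not known. Different clusters held much of a class in the genotypes, and Ikkb_cKO library 3 differed from libraries 1 and 2. A fibroblast cluster led by Coch held 45.2% of the class in Ikkb_cKO library 3, 2.12% and 2.91% in Ikkb_cKO libraries 1 and 2, and 8.88% and 9.67% in WT. Beyond the pools of 2 mice nothing says how separate the libraries were, so p-values reflect the spread among these 5 libraries only, part of which may be technical.

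The part of all UMIs that came from ribosomal protein genes overlapped between genotypes in fibroblast-like cells, and was larger in every Ikkb_cKO library in lymphocyte-like and myeloid-like cells. In fibroblast-like cells the share was 18.5%, 18.8% and 17.9% in the Ikkb_cKO libraries, against 18.3% and 18.7% in the WT libraries. The groups overlapped, and the difference of -0.111 percentage points had p = 0.9 (exact permutation test over libraries, two-sided), a test whose smallest possible p is 0.1. Its sign turned without Ikkb_cKO library 3 (0.145 points) and without WT library 2 (0.116 points).

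In lymphocyte-like cells the share was 30.8%, 30.3% and 28.1% in Ikkb_cKO, against 26.0% and 25.2% in WT. All 3 Ikkb_cKO libraries lay above both WT libraries, with a difference of 4.12 percentage points (exact permutation p = 0.1, the smallest possible). In myeloid-like cells the share was 25.4%, 24.0% and 20.4% in Ikkb_cKO, against 18.3% and 18.7% in WT. These groups did not overlap either, while Ikkb_cKO library 3 lay nearer to WT than to library 1 (difference 4.77 points, exact permutation p = 0.2). The larger myeloid-like share went with another cluster makeup. A cluster led by Retnla and Lyz1 held 40.9% to 47.9% of the class in Ikkb_cKO and 22.5% to 24.2% in WT. Another, led by Pf4 and C1qc, in which members made up 13.8% to 15.5% of UMIs in Ikkb_cKO and 14.7% to 15.1% in WT, held 5.76% to 19.3% of the class in Ikkb_cKO and 50.9% to 53.5% in WT. Within the Retnla cluster the share was 20.4% to 24.3% in Ikkb_cKO and 20.1% to 20.2% in WT. In lymphocyte-like cells the cluster led by Il13 and Il5 held 38.7% to 60.6% of the class in Ikkb_cKO and 20.8% and 22.5% in WT. Within it the share was 31.5% to 31.9% in Ikkb_cKO and 29.1% and 29.9% in WT. A cluster led by Gzmc and Xcl1 held 8.43% to 32.2% of the class in Ikkb_cKO and 45.4% and 46.8% in WT. The part of cluster makeup in these 2 class differences was not tested.

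**Figure D1:**
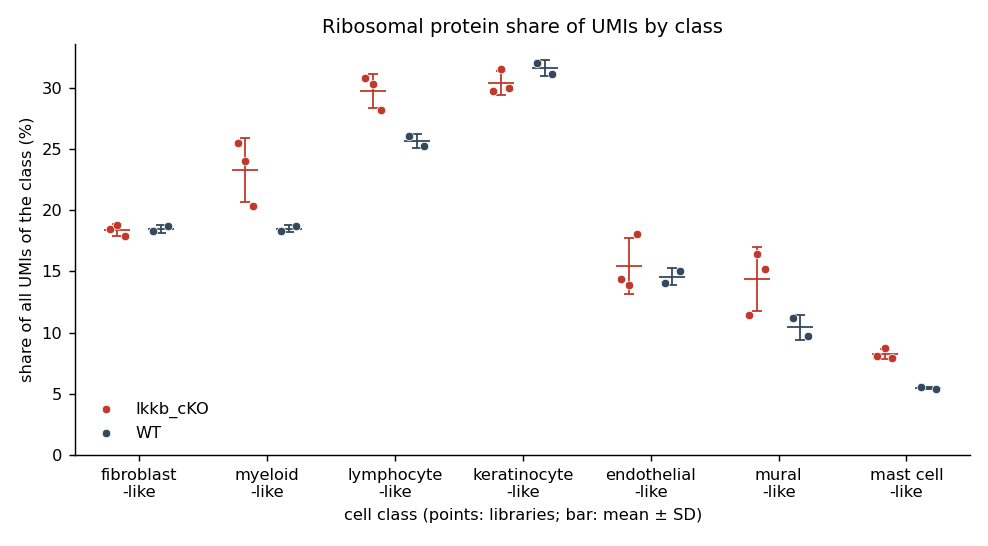
Share of all UMIs of a class that came from the 83 ribosomal protein genes (%, linear axis from 0), by class, with Ikkb_cKO libraries (red) left of WT libraries (dark). Points are libraries, and bars give the mean ± SD of 3 Ikkb_cKO and 2 WT libraries. Fibroblast-like libraries overlap near 18%, while the 3 Ikkb_cKO lymphocyte-like libraries sit at 28.1% to 30.8%, above both WT libraries.

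Cell classes spanned a wide range of this share. As a description with no test, keratinocyte-like cells had the highest mean share in both genotypes, 29.7% to 31.5% in Ikkb_cKO and 31.1% and 32.0% in WT. Mast cell-like cells had the lowest, 7.97% to 8.76% in Ikkb_cKO and 5.44% and 5.56% in WT. Endothelial-like cells lay between, at 13.9% to 18.1% in Ikkb_cKO and 14.1% and 15.1% in WT, and overlapped with mural-like cells at 11.4% to 16.5% in Ikkb_cKO. Mural-like cells of WT had 9.72% and 11.2%. These smaller classes rest on as few as 3 cells in a library.

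In fibroblast-like cells single members moved in opposite directions, mostly by size. Counts summed per library and class were tested with edgeR's quasi-likelihood test at an adjusted p of 0.05. Of 81 members tested, 16 rose and 31 fell in Ikkb_cKO, where 17.0% and 17.5% of all 10374 genes tested rose and fell. The median member had a log2 fold change of -0.19, and the median of all genes was 0.04. Of the 11 members under 300 coding bases, 9 rose and 0 fell, with a median of 1.00. The 2 others were Rpl37 (0.33, adjusted p = 0.153 in edgeR) and Rpl39l (0.66, adjusted p = 0.251 in edgeR). Of the 23 tested members of 600 bases or more, 17 fell and 2 rose, with a median of -0.73. Of the 47 members in between, 5 rose and 14 fell. Without WT library 1 the counts were 6 higher and 14 lower, and without WT library 2 they were 7 and 12. Different clusters held most of this class in the genotypes. A cluster led by Ugdh and Postn held 27.7% to 34.9% of it in Ikkb_cKO and 0.436% to 0.466% in WT. One led by Col6a5 and Ptx3 held 38.1%, 44.3% and 6.09% in Ikkb_cKO libraries 1 to 3 and none in WT, and one led by Timp1 and Postn held 0.703% to 6.74% in Ikkb_cKO and 18.8% to 19.6% in WT.

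**Figure D2:**
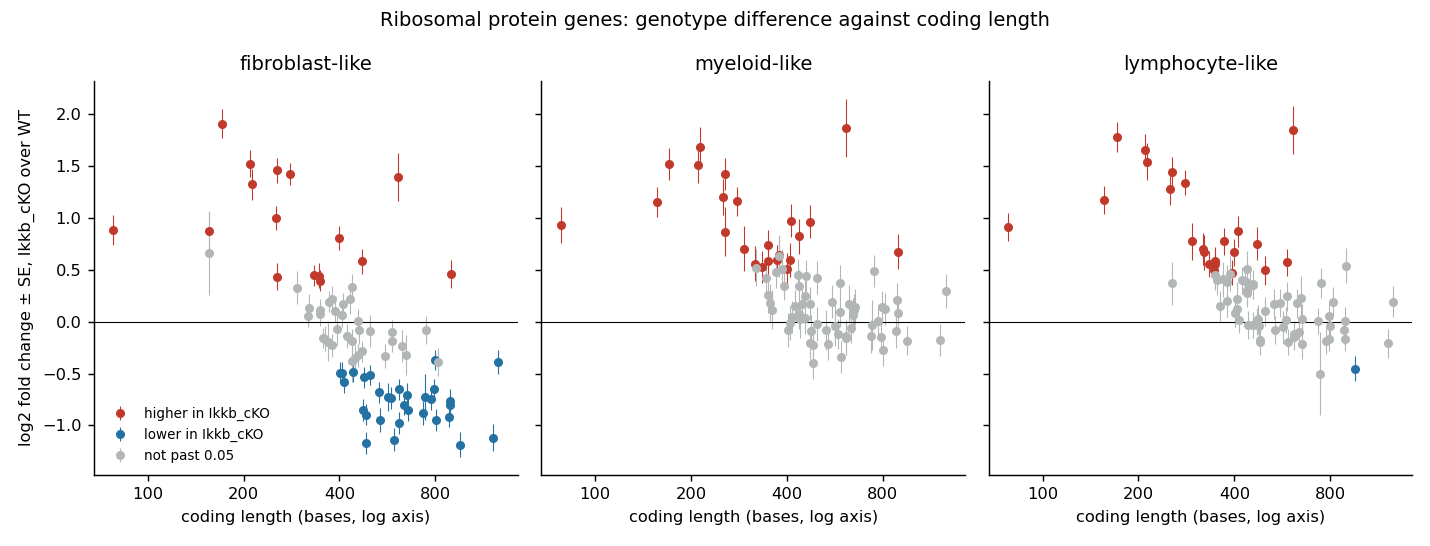
Log2 fold change of Ikkb_cKO over WT (± SE from edgeR) for each tested ribosomal protein gene against its coding length in bases (log axis), by class. Red marks members higher and blue members lower in Ikkb_cKO at an adjusted p under 0.05, grey the rest. The members under 300 bases lie above 0 in all 3 panels, and those of 600 bases or more have a median of -0.73 in fibroblast-like, 0.06 in myeloid-like and -0.05 in lymphocyte-like cells.

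Rps29, a small-subunit protein with a zinc-binding motif (chromosome 12, 69157722 to 69159186, minus strand), showed the largest rise. Its level, as CPM normalised by TMM, was 6808, 6410 and 6838 in Ikkb_cKO libraries 1 to 3, against 1994 and 1567 in the WT libraries. The groups lay far apart, with 1.91 on the log2 scale (SE 0.14, edgeR adjusted p = 0.00143). Rps28, another small-subunit protein (chromosome 17, 33819027 to 33824562, minus strand), had 5243, 4885 and 5097 CPM in Ikkb_cKO, against 1957 and 1574 in WT. Its rise was 1.52 (SE 0.13, edgeR adjusted p = 0.00143), again with no overlap between genotypes.

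Rps27, a zinc-finger protein of the small subunit (chromosome 3, 90212522 to 90213651, minus strand), had 2940, 3074 and 3441 CPM in Ikkb_cKO and 1171 and 1121 in WT. Rpl37a (chromosome 1, 72711290 to 72713813, plus strand) had 6876, 6551 and 7191 CPM in Ikkb_cKO and 2570 and 2562 in WT. These are log2 fold changes of 1.46 (SE 0.12) and 1.42 (SE 0.10), both with an adjusted p of 0.00143 in edgeR. Rpl38, of the large subunit and known in mice for a role in translating Hox mRNAs (chromosome 11, 114668524 to 114672331, plus strand), had 5109, 4583 and 4573 CPM in Ikkb_cKO and 2166 and 1632 in WT. Its rise of 1.32 (SE 0.15, adjusted p = 0.00245 in edgeR) was larger than the gap between the WT libraries.

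Rpl41, the shortest member, was also the most abundant one in WT fibroblast-like cells. It had 14721, 14373 and 11159 CPM in Ikkb_cKO and 7473 and 7098 in WT, and rose by 0.88 (SE 0.14, adjusted p = 0.00578 in edgeR). Ikkb_cKO library 3 was the lowest of its group and still above both WT libraries. Rpl39, which lines the exit tunnel of the ribosome, had 4273, 4429 and 6165 CPM in Ikkb_cKO and 2797 and 2605 in WT (log2 fold change 0.88, SE 0.18, adjusted p = 0.0118 in edgeR). Here library 3 was the highest.

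Rpl13a was the main exception to the order by size. It has 612 coding bases (chromosome 7, 45125558 to 45128761, minus strand) and had 374, 358 and 235 CPM in Ikkb_cKO, against 113 and 132 in WT. Its rise of 1.39 (SE 0.23, adjusted p = 0.00605 in edgeR) was among the 6 largest, and did not pass without WT library 1 (1.26) or WT library 2 (1.49). Its level was low for a member, and 2 near-identical copies of its coding sequence lie elsewhere in the annotation, 1 of them with a row of its own, so its count is uncertain.

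The falls were led by Rplp0, the base of the ribosomal stalk (chromosome 5, 115559467 to 115563727, plus strand). It had 1781, 1865 and 2146 CPM in Ikkb_cKO libraries and 4323 and 4458 in WT libraries, a log2 ratio of -1.18 (SE 0.12, edgeR adjusted p = 0.00188). The other stalk genes, of 345 and 348 coding bases, went the other way. Rplp1 averaged 4512 ± 264 CPM in Ikkb_cKO (SD, n = 3) and 3318 ± 357 CPM in WT (SD, n = 2), a rise of 0.44 (adjusted p = 0.0281 in edgeR). Rplp2 rose by 0.40 (adjusted p = 0.0250 in edgeR).

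Rpl29 had 805, 823 and 875 CPM in Ikkb_cKO and 1849 and 1894 in WT, a log2 ratio of -1.17 (SE 0.11, edgeR adjusted p = 0.00157). It has 16 near-identical copies in the annotation. Rpl19 (chromosome 11, 98026710 to 98030492, plus strand) had 1453, 1418 and 1609 CPM in Ikkb_cKO and 3242 and 3328 in WT (-1.14, SE 0.11, adjusted p = 0.00171 in edgeR). Rpl3, which reaches into the peptidyl transferase centre (chromosome 15, 80077791 to 80091868, minus strand), had 533, 516 and 631 CPM in Ikkb_cKO and 1175 and 1257 in WT (-1.12, SE 0.13, adjusted p = 0.00259 in edgeR). For all of these the highest Ikkb_cKO library lay well below the lower WT library. Rpl15 (-0.98, adjusted p = 0.00230 in edgeR) and Rpl11 (-0.95, adjusted p = 0.00263 in edgeR) completed the 6 largest falls.

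**Figure D3:**
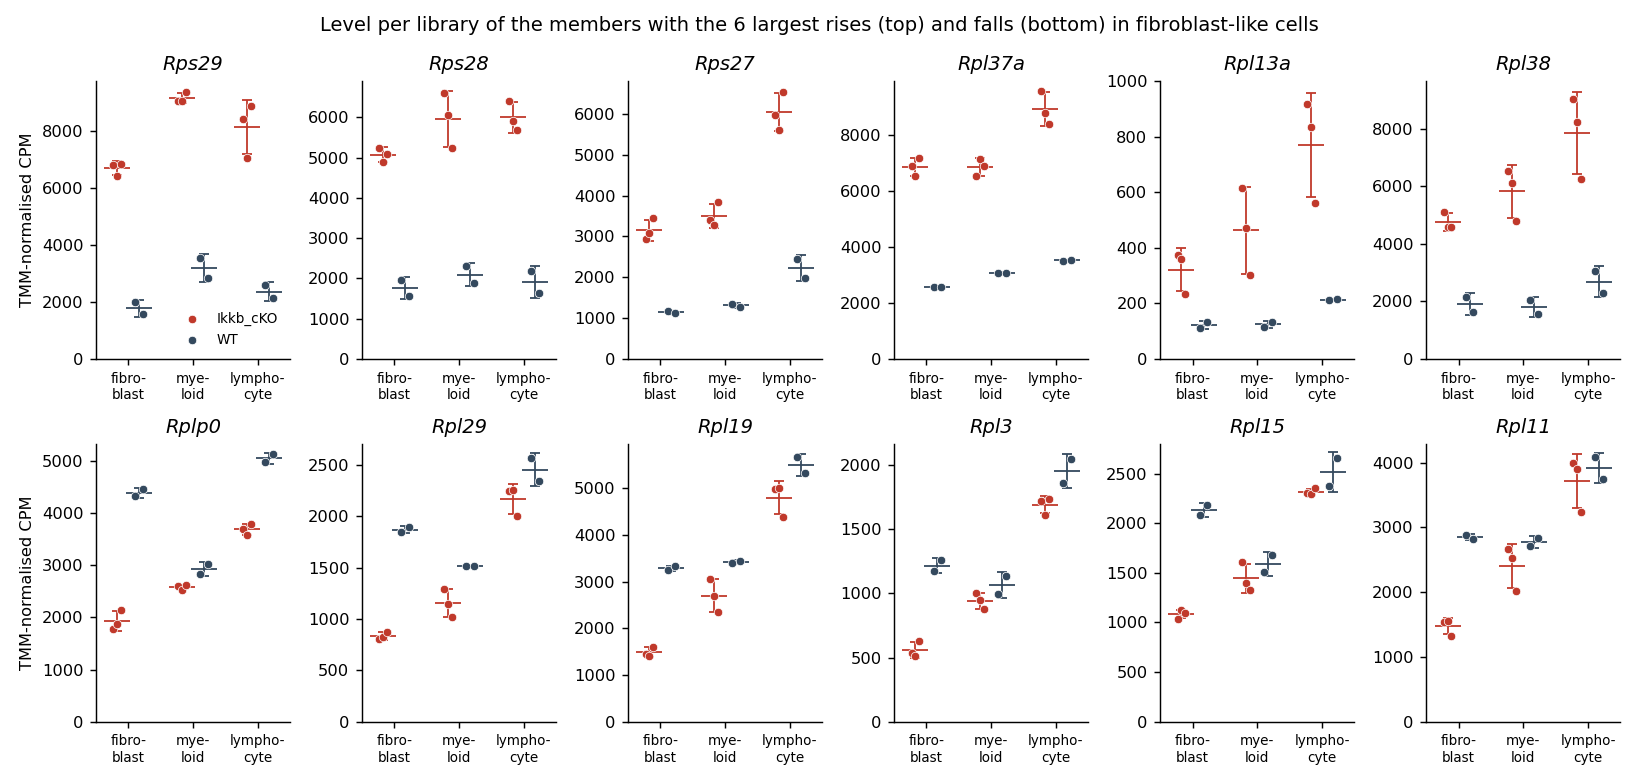
TMM-normalised CPM per library (linear axes from 0) of the members with the 6 largest rises (top row) and the 6 largest falls (bottom row) in fibroblast-like cells, shown for the fibroblast-like, myeloid-like and lymphocyte-like class. Ikkb_cKO libraries (red) stand left of WT libraries (dark), with mean ± SD. The top row separates the genotypes in all 3 classes. In the bottom row the distance is largest in fibroblast-like cells, as for Rplp0 with 1781 to 2146 CPM in Ikkb_cKO and 4323 and 4458 in WT.

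Rpl5 and Rpl11, which form a complex with 5S ribosomal RNA and bind Mdm2, moved apart. Rpl5, with 894 coding bases (chromosome 5, 107900502 to 107909005, plus strand), had 853, 784 and 690 CPM in Ikkb_cKO and 538 and 587 in WT, a rise of 0.46 (SE 0.14, adjusted p = 0.0392 in edgeR). Rpl11 (chromosome 4, 136028265 to 136053428, minus strand) had 1544, 1553 and 1328 CPM in Ikkb_cKO and 2878 and 2822 in WT. Of 12 p53 target genes, which respond to free Rpl5 and Rpl11 through Mdm2, 2 rose and 2 fell, near the shares of all genes (17.0% and 17.5%). Zmat3 and Trp53inp1 were higher by 0.85 and 1.20 on the log2 scale, and Bax and Phlda3 were at -0.53 and -1.28. In myeloid-like cells 1 of 11 fell (9.42% of all genes), and in lymphocyte-like cells 1 of 7 rose (6.83% of all genes).

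Rps19, Rps14 and Rps6 did not pass the threshold, while Rpsa fell. Rps19, mutated in Diamond-Blackfan anaemia in humans, averaged 1923 ± 37.0 CPM in Ikkb_cKO (SD, n = 3) and 2181 ± 202 CPM in WT (SD, n = 2), a log2 fold change of -0.18 (adjusted p = 0.240 in edgeR). Rps14 averaged 1693 ± 117 CPM in Ikkb_cKO and 1691 ± 109 CPM in WT (0.00, adjusted p = 0.992 in edgeR). Rps6, the substrate of S6 kinase, had 586, 555 and 659 CPM in Ikkb_cKO and 595 and 675 in WT (-0.08, adjusted p = 0.660 in edgeR), and these libraries overlapped. Rpsa, also known as the laminin receptor, had 2265, 2176 and 1976 CPM in Ikkb_cKO and 3619 and 3627 in WT (-0.76, adjusted p = 0.00384 in edgeR). After Rpl41 the most abundant members in WT were Rpl13 and Rps24, at 3230 ± 79.1 and 4004 ± 269 CPM in Ikkb_cKO (SD, n = 3), against 5632 ± 102 and 5623 ± 25.1 CPM in WT (SD, n = 2). Both fell (-0.80 and -0.49, with adjusted p = 0.00263 and 0.0134 in edgeR).

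Paralogs of restricted expression ranged from no UMI to levels near those of common members. Rpl10l, a testis paralog of Rpl10, had no UMI in any fibroblast-like, myeloid-like or lymphocyte-like cell, which in fibroblast-like cells allows up to 0.656 CPM in Ikkb_cKO and 0.143 CPM in WT. That limit covers counting error only. Rpl3l, the muscle paralog of Rpl3, had 0 UMIs in Ikkb_cKO and 4 in WT fibroblast-like cells. Rpl39l had 52, 43 and 270 UMIs in Ikkb_cKO libraries 1 to 3 and 399 and 500 in WT fibroblast-like cells, or 52.7, 39.4 and 108 CPM in Ikkb_cKO and 42.5 and 45.1 CPM in WT. Ikkb_cKO library 3 stood above the other libraries, which overlapped. Myeloid-like cells had 2 UMIs of Rpl39l in Ikkb_cKO and 8 in WT, and lymphocyte-like cells had 8 in Ikkb_cKO and 2 in WT. Rpl22l1, a copy of Rpl22, averaged 818 ± 179 CPM in Ikkb_cKO and 937 ± 15.7 CPM in WT fibroblast-like cells, beside Rpl22 at 1507 ± 106 CPM in Ikkb_cKO and 1399 ± 13.2 CPM in WT (SD, n = 3 for Ikkb_cKO and 2 for WT). Rps27l, a p53-responsive copy of Rps27, rose by 0.43 (adjusted p = 0.0415 in edgeR), and Rpl7l1 was at -0.73 (adjusted p = 0.0411 in edgeR) with 124 UMIs in Ikkb_cKO and 874 in WT. The main copies Rpl10 (-0.32, adjusted p = 0.241), Rpl22 (0.11, adjusted p = 0.494) and Rpl7 (-0.39, adjusted p = 0.0648) did not pass in edgeR, while Rps4x was lower (-0.65, adjusted p = 0.00499). Levels of different genes are CPM and are not corrected for length, since each UMI marks a 3′ end.

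In myeloid-like cells taken as a whole class, rises passed the threshold and falls did not. Of 80 members tested, 23 rose and 0 fell in Ikkb_cKO by edgeR, where 8.79% and 9.42% of all 8991 genes tested rose and fell. DESeq2 gave 17 and 0, limma voom 36 and 2, and 34 members had an unadjusted p under 0.05. All 10 tested members under 300 bases rose, with a median log2 fold change of 1.18. Of 23 members of 600 bases or more 2 rose, Rpl13a and Rpl5, with a median of 0.06. Rpl13a had 616, 472 and 301 CPM in Ikkb_cKO and 115 and 135 in WT (log2 fold change 1.87, SE 0.28, adjusted p = 0.00139 in edgeR). Rps29 had 9048, 9032 and 9348 CPM in Ikkb_cKO and 3546 and 2834 in WT (1.52, SE 0.16, adjusted p = 0.000168 in edgeR). Rpl38, Rps28, Rps27 and Rps21 rose by 1.68, 1.51, 1.42 and 1.20, with adjusted p from 0.000239 to 0.00120 in edgeR. Rplp0 averaged 2583 ± 44.5 CPM in Ikkb_cKO (SD, n = 3) and 2932 ± 129 CPM in WT (SD, n = 2), and its log2 fold change of -0.18 did not pass (adjusted p = 0.398 in edgeR). Without Ikkb_cKO library 3 there were 46 rises and 1 fall, without Ikkb_cKO library 2 there were 15 rises, and without WT library 1 or 2 there were 8 and 10. With only clusters of 20 or more cells in each library, 11 members rose, 3 fell and the median was -0.0046.

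In lymphocyte-like cells 23 of 80 tested members rose and 1 fell in edgeR, where 6.83% and 3.94% of all 5209 genes tested rose and fell. With library totals as the only scaling the split of all genes turned to 288 up and 344 down and their median shifted to -0.11, while the members gave 21 up and 1 down. Of 10 tested members under 300 bases 9 rose, with a median log2 fold change of 1.31. The remaining one was Rps27l (0.37, adjusted p = 0.260 in edgeR). Rps29 had 8413, 7058 and 8877 CPM in Ikkb_cKO and 2595 and 2134 in WT (1.78, SE 0.15, adjusted p = 4.1e-05 in edgeR). Rpl13a, Rps28, Rpl38, Rps27 and Rpl37a rose by 1.84, 1.65, 1.54, 1.45 and 1.34. The 1 member that fell was Rplp0, with 3700, 3577 and 3794 CPM in Ikkb_cKO and 4981 and 5130 in WT (-0.45, SE 0.12, adjusted p = 0.0290 in edgeR). Without Ikkb_cKO library 3 there were 42 rises, without Ikkb_cKO library 1 or 2 there were 13 and 14, and without WT library 1 or 2 there were 11 and 8. The fall of Rplp0 did not pass without Ikkb_cKO library 1 or 2 or WT library 1 or 2, nor in DESeq2, under the looser cell filter or in the clusters with at least 20 cells in every library. A cluster led by Il13 and Il5 held 38.7% to 60.6% of the class in Ikkb_cKO and 20.8% and 22.5% in WT.

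The groups failed to overlap for 21 members higher and 42 lower in Ikkb_cKO in fibroblast-like cells, where 29.6% and 30.6% of all genes did so in each direction. In myeloid-like cells this held for 37 higher and 7 lower (all genes 20.9% and 24.2%), and in lymphocyte-like cells for 44 higher and 10 lower (all genes 24.4% and 23.9%).

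The 11 short members can be summed into a single share of ribosomal protein UMIs. This split was made after the values were seen, so it is given without a test. In fibroblast-like cells the short members made up 29.97%, 28.8% and 28.5% of ribosomal protein UMIs in Ikkb_cKO, against 13.8% and 12.2% in WT. In myeloid-like cells they made up 25.1%, 25.9% and 26.5% in Ikkb_cKO, against 15.5% and 13.5% in WT. In lymphocyte-like cells the shares were 22.4%, 21.7% and 22.4% in Ikkb_cKO, against 12.5% and 11.1% in WT. The Ikkb_cKO libraries were above the WT libraries in all 10 named classes, some of which rest on very few cells. Muscle-like cells numbered 1 in Ikkb_cKO library 3, and schwann-like cells numbered 2 each in Ikkb_cKO libraries 1 and 2. Keratinocyte-like cells had 19.9% to 20.8% in Ikkb_cKO and 10.2% and 12.0% in WT, and mast cell-like cells had 23.0% to 26.1% in Ikkb_cKO and 12.1% and 13.6% in WT. In all 18 clusters with at least 20 cells in a library of each genotype, every such Ikkb_cKO library was above every such WT library.

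**Figure D4:**
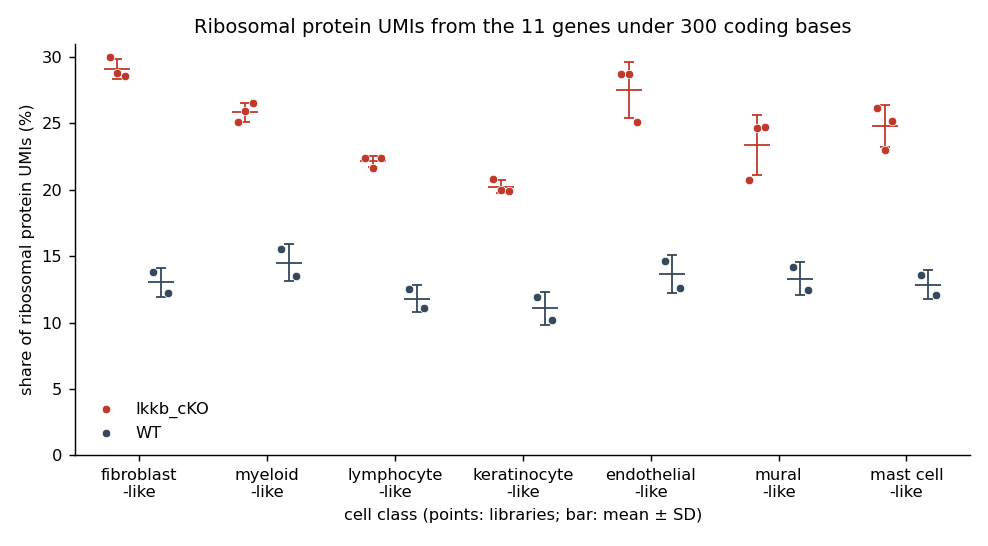
Share of ribosomal protein UMIs that came from the 11 members under 300 coding bases (%, linear axis from 0), by class, with Ikkb_cKO libraries (red) left of WT libraries (dark), mean ± SD. Every Ikkb_cKO library lies above every WT library in each class shown, for example 28.5% to 29.97% against 12.2% and 13.8% in fibroblast-like cells.

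The genotypes differed in several library measures that moved with this share. The median UMI count per fibroblast-like cell was 1539, 1747 and 2448.5 in Ikkb_cKO and 4696 and 5256 in WT. In lymphocyte-like cells it was 1714, 2012 and 2542 in Ikkb_cKO and 2047 and 2339 in WT, which overlapped. Mitochondrially encoded transcripts were 3.41%, 3.18% and 3.58% of fibroblast-like UMIs in Ikkb_cKO and 2.11% and 2.12% in WT. Of 13 mitochondrially encoded genes 8 rose and 1 fell in fibroblast-like cells, where 17.0% and 17.5% of all genes did so. In myeloid-like cells 5 of them rose and in lymphocyte-like cells 9, where 8.79% and 6.83% of all genes rose. With only cells of 1000 to 4000 UMIs, the genotype difference in the short share of fibroblast-like cells was 16.2 percentage points, against 16.1 points with all cells. Markers of other classes in fibroblast-like cells summed to 56.2 to 92.7 CPM in Ikkb_cKO and 73.3 to 112 CPM in WT for the 25 myeloid markers. For the 25 lymphocyte markers they summed to 430 to 1036 CPM in Ikkb_cKO and 709 to 738 CPM in WT, with Tcrg-C1 and Trbc1 at 0. Only 2 of these 25 passed the low-count filter in fibroblast-like cells, so few genes may carry this sum. Whether it comes from lymphocyte RNA was not tested. In myeloid-like cells the fibroblast markers summed to 404 to 591 CPM in Ikkb_cKO and 819 to 930 CPM in WT. In lymphocyte-like cells the myeloid markers summed to 1688 to 2504 CPM in Ikkb_cKO and 2667 to 2927 CPM in WT. Genotype and any step that differed between the Ikkb_cKO and the WT libraries cannot be told apart. The part of mitochondrial content in the short share was not tested.

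The order by coding length among other genes is given beside that of the members. Across the 81 tested members in fibroblast-like cells, Spearman's rho between coding length and log2 fold change was -0.73. Across 10093 other protein-coding genes it was 0.32. In myeloid-like cells the values were -0.64 over 80 members and 0.15 over 8754 other genes, and in lymphocyte-like cells -0.71 over 80 members and 0.32 over 5045. Among abundant other genes (average log2 CPM 9 or higher) rho was 0.28 over 199 genes in fibroblast-like, -0.29 over 184 in myeloid-like and 0.02 over 195 in lymphocyte-like cells. These are correlations across genes that share the same libraries, given as a description. Among other genes under 300 bases in fibroblast-like cells 29 of 223 rose and 71 fell, with a median of -0.29. Limited to the same abundant genes, 2 of 27 such genes rose and 10 fell, with a median of -0.18. In the length bin that starts at 600 bases, 14 of 20 members fell and 2 rose in fibroblast-like cells (median -0.72). Other genes in that bin fell too, 454 of 1428, while 159 rose (median -0.345). Of the abundant ones there 10 of 23 fell and 3 rose (median -0.62). In the longest bin of other genes 238 of 4493 fell and 982 rose (median 0.28). In myeloid-like cells 13 of 36 abundant genes under 300 bases rose and 4 fell, with a median of 0.39.

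**Figure D5:**
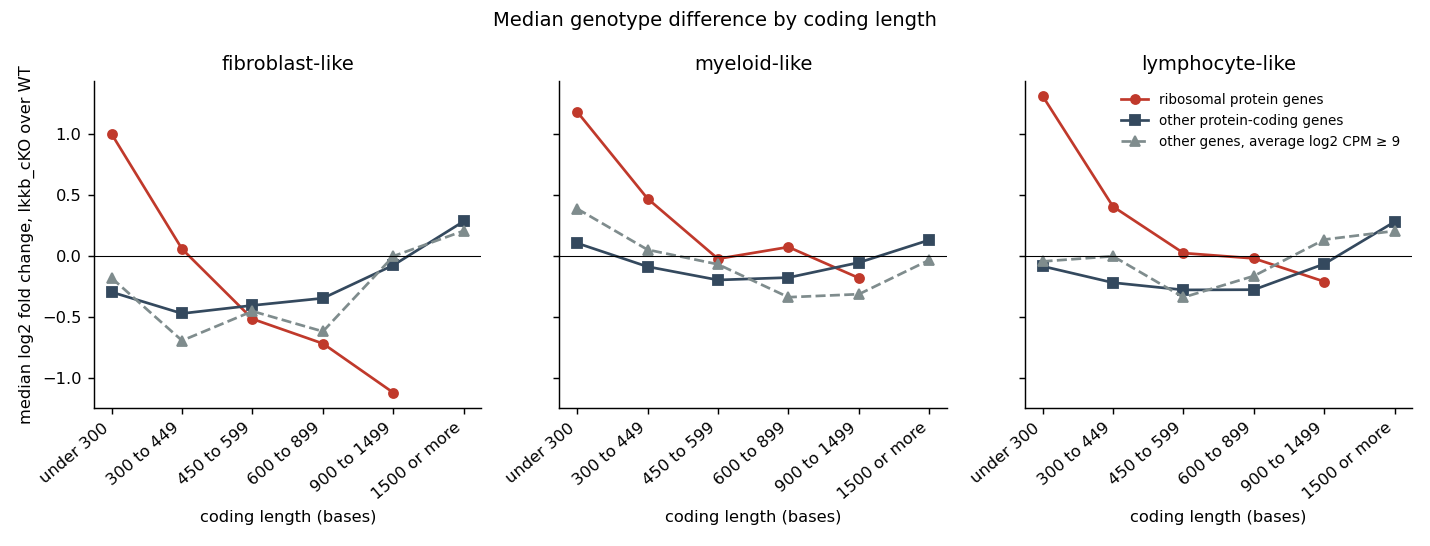
Median log2 fold change of Ikkb_cKO over WT by coding length, for ribosomal protein genes (red circles), other protein-coding genes (dark squares) and the abundant ones among these (grey triangles, dashed), by class. In fibroblast-like cells the line of ribosomal protein genes runs down from 1.00 under 300 bases to -1.12 in its longest bin (3 genes), while that of other genes starts at -0.29 and ends at 0.28.

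Single clusters with 20 or more cells in each library were tested as well, 3 of them fibroblast-like. In the cluster led by Bpifa2 and Smr3a 13 of 80 members rose and 34 fell, where 16.6% and 16.0% of the 1614 genes tested rose and fell. In the cluster led by Cilp and Thbs4 11 of 79 rose and 32 fell (22.1% and 18.7% of all 1571 genes), and in that led by Gsn and Mmp3 10 of 79 rose and 28 fell (16.6% and 15.7% of all 1353 genes). The share of members that fell was above that of all genes in each of these 3 clusters. The share that rose was below it in 2 of them and near the 16.6% of all genes in the cluster led by Bpifa2. Rps29 was higher by 1.68, 1.81 and 1.88 and Rplp0 lower by -1.35, -1.30 and -1.24 in these clusters, with adjusted p from 6.9e-05 to 0.00126 in edgeR.

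The immune clusters gave unlike counts. In the myeloid-like cluster led by Retnla and Lyz1, 13 of 80 members rose and 21 fell (6.3% and 7.48% of all 5683 genes). There Rplp0 was lower by -0.82 (adjusted p = 0.000986 in edgeR) and Rpl19 by -0.94 (adjusted p = 0.000128 in edgeR). In the myeloid-like cluster led by Cst3 and MHC class II genes, 13 of 80 rose and 0 fell (2.9% and 0.847% of all 2242 genes). In the lymphocyte-like cluster led by Il13 and Il5, 21 of 79 rose and 2 fell (6.07% and 4.17% of all 3116 genes). Members under 300 bases had median log2 fold changes of 0.94 to 1.17 in all 6 clusters.

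The difference between classes was tested directly, as a class by genotype interaction in edgeR with the library as a block. The genotype difference was lower in fibroblast-like than in myeloid-like cells for 24 members and higher for 1, Rps29, where 4.42% and 7.36% of all 11471 genes passed in these directions. The call of Rps29 was lost without Ikkb_cKO library 2, WT library 1 or WT library 2, with library totals, with cells of 1000 to 4000 UMIs and without the library block, which each gave 0 higher, and without Ikkb_cKO library 3 there were 3 higher. Without the library block 7 members were lower against myeloid-like and 14 against lymphocyte-like cells. Against lymphocyte-like cells it was lower for 37 members and higher for none, where 1.83% and 0.649% of all 9861 genes passed, and 62 members had an unadjusted p under 0.05. With library totals as the only scaling, 119 of all genes were lower and 88 higher against lymphocyte-like cells, and 20 members were lower. Among the members named, the largest such differences were those of Rplp0 against myeloid-like cells (-0.90, SE 0.15, adjusted p = 0.000367 in edgeR) and of Rpl29 against lymphocyte-like cells (-1.01, SE 0.15, adjusted p = 0.000593 in edgeR). Of the members under 300 bases only Rps29 passed, against myeloid-like cells. Rps28 differed by 0.13 against myeloid-like (adjusted p = 0.628 in edgeR) and -0.16 against lymphocyte-like cells (adjusted p = 0.650 in edgeR). Without WT library 1 or 2 the count against myeloid-like cells was 2 either time, and without Ikkb_cKO library 2 or 3 it was 12 or 59. Against lymphocyte-like cells it was 6 and 12 without WT library 1 and 2, and 19, 11 and 59 without Ikkb_cKO library 1, 2 and 3.

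Pyrimidine runs near the start site were found among members that rose and among members that fell. A TOP tract begins at the first base of the mRNA, which was not required of these runs. RefSeq promoters (GRCm38.p6) were matched for 63 of the 83 members. A run of at least 8 C or T bases on the gene's strand within 15 bases of the start was present in 25 of 63 (39.7%), against 11.9% of all 27025 promoters. In fibroblast-like cells such a run was found in 6 of 13 matched members that rose, 9 of 23 that fell and 10 of 25 not called. Some runs lie wholly before the start, as in Rpl13 (9 bases from base -15), so these are not counts of TOP tracts. A C at the start itself was present in 33.3% of members and 16.2% of all promoters, and TATAAA on either strand in 3.17% and 4.64%. Windows from 60 bases before to 15 bases from the start are shown for 4 members that rose and then 4 that fell, 5′ to 3′ on the gene's strand, with the longest pyrimidine run near the start in capitals.
Rps28: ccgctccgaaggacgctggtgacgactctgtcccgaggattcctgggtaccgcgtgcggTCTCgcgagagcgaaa
Rps27: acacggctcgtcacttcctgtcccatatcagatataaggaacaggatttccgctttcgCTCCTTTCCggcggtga
Rpl37a: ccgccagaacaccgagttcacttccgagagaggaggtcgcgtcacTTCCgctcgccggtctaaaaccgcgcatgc
Rpl38: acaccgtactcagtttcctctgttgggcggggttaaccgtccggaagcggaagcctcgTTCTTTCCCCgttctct
Rplp0: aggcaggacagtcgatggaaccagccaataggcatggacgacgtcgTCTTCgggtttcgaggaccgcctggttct
Rpl19: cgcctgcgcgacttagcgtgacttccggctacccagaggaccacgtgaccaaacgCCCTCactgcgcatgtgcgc
Rpl15: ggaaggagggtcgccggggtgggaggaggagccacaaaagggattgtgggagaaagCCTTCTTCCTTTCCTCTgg
Rpl11: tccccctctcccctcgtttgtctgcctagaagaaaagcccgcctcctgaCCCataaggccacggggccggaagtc
The windows lie at chr17:33824548-33824622, chr3:90213634-90213708, chr1:72711200-72711274, chr11:114668520-114668594, chr5:115559407-115559481, chr11:98026650-98026724, chr14:18270972-18271046 and chr4:136053379-136053453, in the order shown. A run of 10 stands at the start of Rpl38, which rose, and one of 17 at that of Rpl15, which fell. The RefSeq start used for these windows and the GENCODE end of the gene given above differ for Rpl37a, Rpl38 and Rpl11 among others. A missing run says only that these letters are not in this window.

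Near-identical copies were also spread over both directions. Of 83 members 72 had at least 1 copy in the annotation at 97% identity or more, and 23 had a copy with a row of its own in the matrices. Members that rose in fibroblast-like cells had a median of 3.5 copies, those that fell 3, and those not called 4. Among named members the counts were highest for Rpl21 (33 copies), Rps12 and Rpl7a (18 each), Rpl29 (16) and Rps2 (15). Reads that match several copies may have been dropped or split, so the levels of these members are uncertain.

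Of the ribosome partners outside the symbol pattern, 4 are given here for fibroblast-like cells. Rpl36al, a copy of Rpl36a, rose by 1.07 on the log2 scale (SE 0.18, edgeR adjusted p = 0.00636), and in myeloid-like and lymphocyte-like cells by 1.92 and 1.93. Fau, whose product is cleaved into a ubiquitin-like part and a small-subunit protein, fell by 0.42 on the log2 scale (adjusted p = 0.0312 in edgeR). Rack1, a signalling scaffold on the small subunit, averaged 694 ± 42.6 CPM in Ikkb_cKO and 672 ± 49.5 CPM in WT (0.05, adjusted p = 0.786 in edgeR). Rps27rt was at 0.38 (adjusted p = 0.187 in edgeR).

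Elongation and other translation factors whose mRNAs carry a TOP tract fell in part in fibroblast-like cells. Of 16 tested, 9 fell and 1 rose, where 17.5% and 17.0% of all genes did so. Their median log2 fold change was -0.65. Eef1d, an exchange factor of elongation factor 1, averaged 177 ± 5.10 CPM in Ikkb_cKO (SD, n = 3) and 485 ± 11.9 CPM in WT (SD, n = 2), a log2 fold change of -1.45 (adjusted p = 0.00143 in edgeR). Eef2, the translocation factor, averaged 427 ± 14.9 CPM in Ikkb_cKO and 1035 ± 25.6 CPM in WT (-1.28, adjusted p = 0.00143 in edgeR). Eif3f (-1.07) and Naca (-0.92) fell too. Of the same 16 genes 2 rose and 1 fell in myeloid-like cells, where 8.79% and 9.42% of all genes did so. In lymphocyte-like cells 0 passed by edgeR (1 higher and 2 lower at an unadjusted p under 0.05). There 6.83% and 3.94% of all genes rose and fell, and Eef2 was at -0.20 and Naca at -0.27.

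Of 26 initiation factors 6 rose and 8 fell in fibroblast-like cells, where 17.0% and 17.5% of all genes did so. Among them were Eif3j1 (1.53) and Eif3a (1.04) up and Eif3i (-1.54) and Eif3k (-1.18) down. In myeloid-like cells 4 rose and 1 fell, where 8.79% and 9.42% of all genes did so. In lymphocyte-like cells 1 rose and 2 fell, where 6.83% and 3.94% of all genes did so. Of 40 ribosome biogenesis genes 6 rose and 9 fell in fibroblast-like cells, near the same shares of all genes. For these genes 4 of 38 rose in myeloid-like cells, and 1 of 27 fell in lymphocyte-like cells. The nucleolar helicase Ddx21 rose by 0.92 and Gnl3, nucleostemin, by 0.85, and the processing factors Wdr43 and Rrp12 by 0.96 and 1.83. Mitochondrial ribosomal proteins, which are encoded in the nucleus and serve another ribosome, moved one way: 52 of 78 fell and 0 rose by edgeR (1 higher at an unadjusted p under 0.05), with a median of -0.90, where the median of all genes was 0.04. Mrpl22 had the largest fall of the 4 with the smallest p (-1.76, adjusted p = 0.00236 in edgeR). In myeloid-like cells 2 of these 78 rose and 2 fell, and in lymphocyte-like cells 1 of 65 rose and 2 fell, with medians of -0.24 and -0.47.

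Of 16 regulators of TOP mRNA translation and of ribosome synthesis 4 rose and 3 fell in fibroblast-like cells, where 17.0% and 17.5% of all genes did so. Larp1, which binds TOP tracts, averaged 61.7 ± 7.95 CPM in Ikkb_cKO (SD, n = 3) and 23.3 ± 0.290 CPM in WT (SD, n = 2), a rise of 1.40 (SE 0.17, adjusted p = 0.00263 in edgeR). Eif4ebp1, an mTOR-controlled repressor of initiation, averaged 39.6 ± 10.9 CPM in Ikkb_cKO and 110 ± 4.82 CPM in WT (-1.47, SE 0.22, adjusted p = 0.00464 in edgeR). Rheb, the activator of mTOR, fell (-0.78), and Eif4ebp2 rose (0.74). Larp1 also rose in myeloid-like cells (1.15, adjusted p = 0.00395 in edgeR). Of the same list 3 of 17 rose and 3 fell in myeloid-like cells, where 8.79% and 9.42% of all genes did so. In lymphocyte-like cells 1 of 11 rose, where 6.83% of all genes did so. Genes induced by tissue dissociation, a sign of handling, gave 3 of 17 higher and 1 lower in fibroblast-like cells (17.0% and 17.5% of all genes). In myeloid-like cells 1 of these 17 rose and 7 fell, where 8.79% and 9.42% of all genes did so. In lymphocyte-like cells 1 of 15 rose, where 6.83% of all genes did so. Dusp1 and Jund were the leading rises in fibroblast-like cells, by 1.20 and 1.11, and Ier3 was the 1 that fell there (-0.94, adjusted p = 0.0174 in edgeR).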

How the data were processed

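Ventral skin cells were profiled with the 10x 3′ v2 kit, as the labels' protocols say. Each deposited matrix gives the raw count of UMIs for every gene in every called barcode. Per the submitters' processing notes the authors used Cell Ranger 1.3.0 and mm10. Software version 3.0.1 stands in the matrices, per the file headers. How reads with several matches were counted is not stated in these sources.

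Barcodes needed 300 genes or more and no more than 10% of UMIs from mitochondria. Scrublet's own threshold marked 0.341% of barcodes, so the 230 barcodes with the highest scores were removed instead, as many as a rate of 0.008 per 1000 cells predicts. Clustering left the member genes out and used 2000 variable genes, 30 components, 15 neighbours and Leiden resolution 1.0. A cluster was named if 3 of a class's markers were among its 50 leading genes, 2 more than for any other class, with no clash among the first 10. The markers came from lists, but this scoring was set after clusters were seen, and 3 of 33 clusters, with 189 cells, stayed unnamed.

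For each library and class the counts were added up and compared by edgeR's robust quasi-likelihood test, with filterByExpr, TMM scaling and Benjamini-Hochberg adjustment over all genes of the class at 0.05. Shares were compared by exact permutation of libraries. Members named with values are the 6 largest rises and falls per class past the threshold (mean log2 CPM 4 or higher), the 3 most abundant members, members with known roles, and paralogs beside their main copies. Of other lists up to 4 genes with the smallest p in fibroblast-like cells are named. The members Rpl37, Rpl21, Rps12, Rpl7a and Rps2 were named after their values were seen, as was the grouping by coding length. The members and lists were chosen with earlier results of these data known. Coding lengths came from GENCODE features of GRCm38, and copies from blastn at 97% identity over at least 100 bases or the whole coding length. The test was checked on simulated data, where false calls were more frequent than the threshold states and most 2-fold changes were missed in each class. A member that did not pass may therefore still differ. Alternatives changed 1 setting at a time, except that the cell filters moved the gene and mitochondrial limits together and the replicate block also left out Ikkb_cKO library 3. Tools were Python 3.11.15, scanpy 1.11.5, R 4.3.3, edgeR 4.0.16, limma 3.58.1 and DESeq2 1.42.0. Some items of the lists are not reported here.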

Additional observations from a re-analysis of the deposited data

Results flagged for a closer look

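The genotype difference differed between classes for a number of ribosomal protein genes, by the class by genotype interaction in edgeR at an adjusted p of 0.05. It was lower in fibroblast-like than in myeloid-like cells for 24 members and higher for 1. Of all genes 4.42% and 7.36% passed in these directions. Against lymphocyte-like cells it was lower for 37 members, where 1.83% of all genes passed. Without the library block 7 members were lower against myeloid-like and 14 against lymphocyte-like cells. Without Ikkb_cKO library 3 there were 59 lower against either class. Against myeloid-like cells the log2 difference was -0.90 for Rplp0, -0.83 for Rpl3, -0.73 for Rpl15, -0.68 for Rpl19, -0.66 for Rpl29 and -0.63 for Rpl11, and 0.50 for Rps29. Against lymphocyte-like cells it was -1.01 for Rpl29, -0.96 for Rpl19, -0.93 for Rpl3, -0.89 for Rpl11, -0.88 for Rpl15 and -0.76 for Rplp0. The call of Rps29 against myeloid-like cells was lost under several settings. Among them were no library block, library totals as the only scaling, and leaving out Ikkb_cKO library 2. The classes share their libraries, and the makeup of each class by cluster differed between genotypes.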

How the results depend on the processing

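For the fibroblast-like share of UMIs the difference ran from -0.338 to 0.145 percentage points with single libraries left out. It was 0.0124 with the stricter cell filter, 0.0191 without doublet removal, 0.0033 at Leiden resolution 0.5 and 0.135 without mitochondrial UMIs. The cause was not tested. With single libraries left out, rises and falls in fibroblast-like cells ran from 6 to 20 and from 12 to 43, and the median from -0.24 to -0.18. That median was -0.17 with the stricter cell filter, -0.22 at resolution 2.0, -0.33 with cells of 1000 to 4000 UMIs, -0.21 with equal cell numbers, -0.40 in clusters with 20 or more cells in each library, -0.16 with library totals, -0.30 without a low-count filter and -0.21 with a stricter one.

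In myeloid-like cells rises ran from 8 to 46 and falls from 0 to 1 with single libraries left out. In the clusters with 20 or more cells in each library there were 11 rises, 3 falls and a median of -0.0046, and limma voom gave 36 rises and 2 falls. In lymphocyte-like cells rises ran from 8 to 42 and falls from 0 to 1. DESeq2 gave 15 rises and 0 falls, voom 35 rises, the looser cell filter 0 falls, the clusters with 20 or more cells in each library 2 falls, and library totals a median of 0.11. The class differences against myeloid-like cells ran from 2 to 59 lower and 0 to 3 higher, with 0 higher under library totals and under the depth window. Those against lymphocyte-like cells ran from 6 to 59 lower, with 20 under library totals and 20 when scaled on other genes.

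Only 2 replicate numbers are shared, and the correlation of same-numbered or other libraries' deviations ran from -0.127 to 0.127. The 2 WT libraries deviate from their mean by equal and opposite amounts, so each value has its mirror by construction. This check therefore cannot decide whether the numbers pair the libraries. With the replicate block, which leaves out Ikkb_cKO library 3, fibroblast-like cells gave 20 rises, 42 falls and a share difference of 0.145, myeloid-like cells 40 rises and lymphocyte-like cells 37. The class comparison has another block, the library, which sets 2 classes of 1 library side by side. Without that block the class differences were 7 lower and 0 higher against myeloid-like and 14 lower against lymphocyte-like cells.

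Only the members with the 6 largest rises and falls per class were followed, over 550 combinations of member, class and setting. Members named for a known role, abundance or a paralog were not. Those followed were picked as the largest calls of the main fit of these same data, which favours keeping the call. At Leiden resolution 0.5 and 2.0 the counts in myeloid-like and lymphocyte-like cells equalled those of the main fit, so these settings tested nothing there. Of the 550 combinations 541 kept direction and side of the threshold, 9 lost the threshold, and none changed sign. The 9 were Rpl13a in fibroblast-like cells without WT library 1 or 2, and Rplp0 in lymphocyte-like cells under 7 settings. Libraries of 945 to 3393 barcodes limit precision in the small classes, and counting intervals cover counting error only.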
